A study of Mus musculus with 12 samples.

Results

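Tight junctions and cell adhesion molecules hold pancreatic beta cells together in islets and in culture, and 10 such genes were followed here across 12 arrays of MIN6 cells, a line from a mouse insulinoma that is widely used in place of primary beta cells. They are Cldn1, Cldn3, Cldn4, Ocln and Tjp1 of the tight junction, the cadherins Cdh1 and Cdh2, the immunoglobulin-family adhesion molecules Ncam1 and Chl1, and Edil3, a secreted matrix protein. They were found by gene symbol among the 19938 genes that the arrays measured, and each had a single probe set. They were selected with the results of the siRNA comparison in DC known, where Cldn1, Edil3 and Chl1 were among the largest decreases, so their values in that comparison are given as a description without a test. The comparisons of DC with CC use the same DC arrays, and the 10 genes carry no test there either. The comparison of siRNA labels in CC is the one in which they were tested.

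Cells were given Hes3 siRNA, directed at a basic helix-loop-helix repressor related to Hes1, or scrambled siRNA. In DC (Defined Conditions) they were kept without serum at 5% oxygen, and in CC (Classic Conditions) with serum at 20% oxygen, so serum and oxygen cannot be told apart. Arrays came from 4 samples of DC with Hes3 siRNA (labelled 1, 2, 5 and 7), 4 of DC with scrambled siRNA, 2 of CC with Hes3 siRNA and 2 of CC with scrambled siRNA. All cells had been maintained in medium with 15% fetal calf serum, were transfected at 2 uM siRNA with 50000 cells per well, and were assayed 12 to 24 hours later. Per the labels, all samples came from 1 experiment on 1 cell line, so p-values measure only the spread between these samples, which may be technical. The number of arrays limits the precision.

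In tight junctions, claudins and occludin span the membrane and seal the space between neighbouring cells, and scaffold proteins such as ZO-1 tie them to actin. Cadherins join cells through calcium-dependent binding between like molecules and connect to actin through catenins, and beta cells carry both E-cadherin and N-cadherin. NCAM and the L1 family are surface proteins of the immunoglobulin superfamily, best known from neurons and also present on endocrine islet cells.

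The Hes3 probe set did not show a lower signal under the Hes3 siRNA label. Its log2 signal averaged 7.34 ± 0.0609 in DC arrays labelled Hes3 siRNA and 7.19 ± 0.0640 in DC scrambled arrays (SD, n = 4 each), and 7.22 ± 0.00521 in CC arrays labelled Hes3 siRNA and 7.02 ± 0.291 in CC scrambled arrays (SD, n = 2 each). Groups are therefore named by their label, and no direction below is attributed to a loss of Hes3. The beta cell label held: the mean log2 signal of 8 beta cell markers ran from 11.14 to 11.25 in DC arrays labelled Hes3 siRNA and from 11.33 to 11.39 in DC scrambled arrays. DC arrays 1 and 5 labelled Hes3 siRNA stood apart from the other arrays on the first principal component, which held 61% of the variance (scores of 34.8 and 29.2, against 15.6 and 12.8 for the other two of that group), as did CC scrambled array 2 at the opposite end (-32.7, where the next lowest array was at -19.3). Signal level also moved with the groups: the median log2 fold change for Hes3 over scrambled siRNA in DC was 0.15, 0.21, -0.03 and -0.15 in 4 equal bins of genes from dimmest to brightest. In the siRNA comparison in DC each of the 10 genes is set beside the median of its own level bin.

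Members of the Hes family bind DNA at sequences known as N-boxes. The 250 bases before the annotated start of 3 claudin genes are shown because these genes had opposite signs in DC, Cldn1 being lower and Cldn3 and Cldn4 higher in arrays labelled Hes3 siRNA. Sequences are from RefSeq on GRCm38.p6, 5′ to 3′ on the strand of the gene, with the N-box letters CACNAG, searched on both strands, in capitals. Cldn1 lies at chr16:26371840-26372089 on the minus strand, Cldn4 at chr5:134946935-134947184 on the minus strand and Cldn3 at chr5:134985964-134986213 on the plus strand.
Cldn1: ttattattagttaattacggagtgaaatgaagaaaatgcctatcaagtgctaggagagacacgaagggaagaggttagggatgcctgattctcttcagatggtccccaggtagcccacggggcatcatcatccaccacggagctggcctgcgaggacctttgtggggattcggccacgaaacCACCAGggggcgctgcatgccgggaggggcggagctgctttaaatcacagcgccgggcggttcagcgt
Cldn4: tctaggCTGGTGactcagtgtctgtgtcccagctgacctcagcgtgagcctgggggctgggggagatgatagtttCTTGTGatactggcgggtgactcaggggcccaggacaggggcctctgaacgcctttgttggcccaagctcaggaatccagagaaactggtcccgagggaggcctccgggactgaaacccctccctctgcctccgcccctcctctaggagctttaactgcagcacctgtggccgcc
Cldn3: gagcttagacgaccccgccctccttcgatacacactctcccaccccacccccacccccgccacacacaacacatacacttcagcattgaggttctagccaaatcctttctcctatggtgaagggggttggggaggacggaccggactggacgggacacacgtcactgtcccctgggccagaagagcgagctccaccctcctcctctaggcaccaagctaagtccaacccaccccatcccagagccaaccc
The Cldn1 window held 1 match, 68 bases before the start, and the Cldn4 window held 2, at 244 and 175 bases. The Cldn3 window held none, nor did those of Chl1 and Tjp1, and 1 of the 2 windows of Ocln held 1 match at 163 bases. These letters occurred in 36.7% of the 32851 promoter windows of the same length, so a match is a description and not a binding site. Hes proteins are also known to bind class C boxes, and the letters CACGNG, searched on both strands, occurred once in these windows, in that of Cldn1 at 135 bases, and in 23.5% of all windows. In all, the search is reported for windows of 6 of the 10 genes, and no window of Cdh1, Cdh2, Ncam1 or Edil3 is reported. The windows of Cldn1, Cldn4 and Cldn3 held 55.6%, 62.0% and 60.8% G and C, beside a median of 52.4% over all windows.

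Cldn1, a sealing claudin of epithelia, gave log2 signals of 9.38, 9.42, 8.61 and 8.95 in DC arrays 1, 2, 5 and 7 labelled Hes3 siRNA, against 10.18, 10.01, 10.09 and 10.24 in DC scrambled arrays. All 4 arrays labelled Hes3 siRNA lay below all 4 scrambled arrays, and array 5 was the lowest. The log2 fold change was -1.04 ± 0.141 (SE), a signal 2.05-fold lower, where the median of its level bin was -0.15. In CC the gene gave 9.65 and 9.48 with Hes3 siRNA, against 9.46 and 9.78 with scrambled siRNA, and these groups overlapped.

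Chl1, a close homolog of the neuronal adhesion molecule L1, gave 8.57, 8.67, 7.85 and 8.32 in DC arrays 1, 2, 5 and 7 labelled Hes3 siRNA, against 9.36, 9.18, 9.17 and 9.33 in DC scrambled arrays. The groups did not overlap, and array 5 was again the lowest. The log2 fold change was -0.91 ± 0.132 (SE), or 1.88-fold lower, beside a level-bin median of -0.03. Chl1 gave 8.49 and 8.43 in CC arrays labelled Hes3 siRNA, against 8.54 and 8.82 in CC scrambled arrays.

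Edil3, a secreted protein that binds integrins of the alpha-v family, gave 8.75, 9.37, 8.59 and 9.60 in DC arrays 1, 2, 5 and 7 labelled Hes3 siRNA, against 10.18, 9.998, 9.91 and 10.12 in DC scrambled arrays. The groups did not overlap, but the arrays labelled Hes3 siRNA spread over a full log2 unit, with arrays 1 and 5 lowest. The log2 fold change was -0.98 ± 0.174 (SE), or 1.97-fold lower, beside a level-bin median of -0.15. Without arrays 1 and 5 it was -0.57 for Edil3, -0.94 for Cldn1 and -0.76 for Chl1. Over the 21 alternatives of the processing it ran from -1.15 to -0.57 for Edil3. For Cldn1 the range was -1.15 to -0.69, and for Chl1 -1.01 to -0.65. Edil3 gave 9.81 and 9.73 in CC arrays labelled Hes3 siRNA, against 9.62 and 10.12 in CC scrambled arrays.

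**Figure D1:**
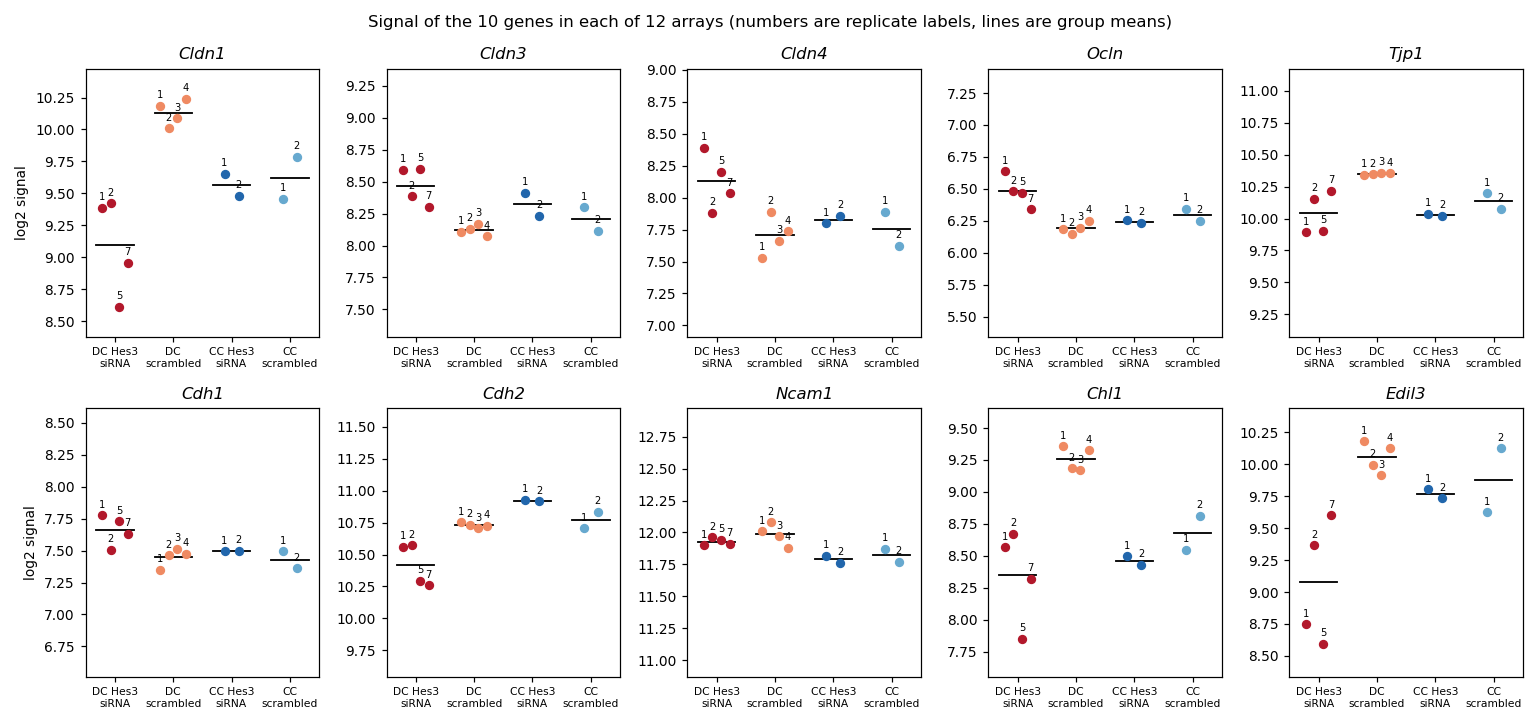
Log2 signal (vertical axis, each panel spanning the same number of log2 units) of each of the 10 genes in every array, by group along the horizontal axis; points are arrays with their replicate label and lines are group means. Cldn1, Chl1 and Edil3 have DC arrays labelled Hes3 siRNA well below the DC scrambled arrays, while the siRNA groups of Ncam1 overlap in DC.

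The other tight junction members had smaller differences. Cldn3, a claudin of tight epithelia, gave 8.59, 8.38, 8.60 and 8.30 in DC arrays 1, 2, 5 and 7 labelled Hes3 siRNA, against 8.11, 8.13, 8.17 and 8.07 in DC scrambled arrays. These groups did not overlap, and the log2 fold change was 0.35 ± 0.0762 (SE), beside a level-bin median of -0.03. Cldn4, a related claudin whose gene neighbours Cldn3, gave 8.39, 7.88, 8.20 and 8.04, against 7.53, 7.89, 7.66 and 7.74 in DC scrambled arrays. One array of each group crossed, and the log2 fold change of 0.42 ± 0.102 (SE) stood beside a level-bin median of 0.21. Ocln, which encodes occludin, gave 6.64, 6.48, 6.47 and 6.34, against 6.18, 6.15, 6.20 and 6.25 in DC scrambled arrays, a log2 fold change of 0.29 ± 0.0646 (SE) beside a level-bin median of 0.15. Ocln was dim, at the 14.9th percentile of all genes. Tjp1, which encodes the scaffold ZO-1, gave 9.89, 10.15, 9.91 and 10.22, against 10.34, 10.35, 10.36 and 10.35 in DC scrambled arrays. The scrambled arrays lay almost on top of each other, and all arrays labelled Hes3 siRNA were lower, by a log2 fold change of -0.31 ± 0.0732 (SE), beside a level-bin median of -0.15.

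The 2 cadherins had opposite signs. Cdh1, which encodes E-cadherin, gave 7.78, 7.51, 7.73 and 7.63 in DC arrays 1, 2, 5 and 7 labelled Hes3 siRNA, against 7.35, 7.46, 7.51 and 7.47 in DC scrambled arrays. Its groups overlapped, and its log2 fold change of 0.21 ± 0.0675 (SE) equalled the median of its level bin, 0.21. Cdh2, which encodes N-cadherin, gave 10.56, 10.57, 10.29 and 10.26, against 10.75, 10.73, 10.71 and 10.73 in DC scrambled arrays. All arrays labelled Hes3 siRNA were lower, by a log2 fold change of -0.31 ± 0.0737 (SE), where the level-bin median was -0.15. Ncam1, which encodes the neural cell adhesion molecule and was the brightest of the 10 (99.2nd percentile), gave 11.90, 11.96, 11.94 and 11.91, against 12.01, 12.08, 11.97 and 11.88. Its groups overlapped, with a log2 fold change of -0.06 ± 0.0582 (SE) beside a level-bin median of -0.15.

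The comparison of siRNA labels in CC was not used in the selection, and none of the 10 genes passed there (limma adjusted p = 1 for each). Nor did any other of the 19938 genes (0%), although 415 had an unadjusted p under 0.05, and none of those was one of the 10. The log2 fold changes ran from -0.22 ± 0.187 (SE) for Chl1 to 0.15 ± 0.104 (SE) for Cdh2. For Cldn1 the value was -0.05 ± 0.199 (SE) and for Edil3 -0.10 ± 0.246 (SE). Differences within these errors were not detectable with 2 arrays a group, and larger ones could be missed as well. Arrays of both labels did not overlap for 4 of the 10, beside 26.9% of all genes. The difference between the siRNA contrast in DC and that in CC was -0.98 ± 0.244 (SE) for Cldn1, -0.87 ± 0.301 for Edil3 and -0.69 ± 0.229 for Chl1 on the log2 scale. These 3 values share the DC arrays of the selection and carry no test, and 0 of all 19938 genes (0%) passed the test of this difference, with 3471 at an unadjusted p under 0.05. Without CC scrambled array 2, 2056 genes (10.3%) passed it.

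**Figure D2:**
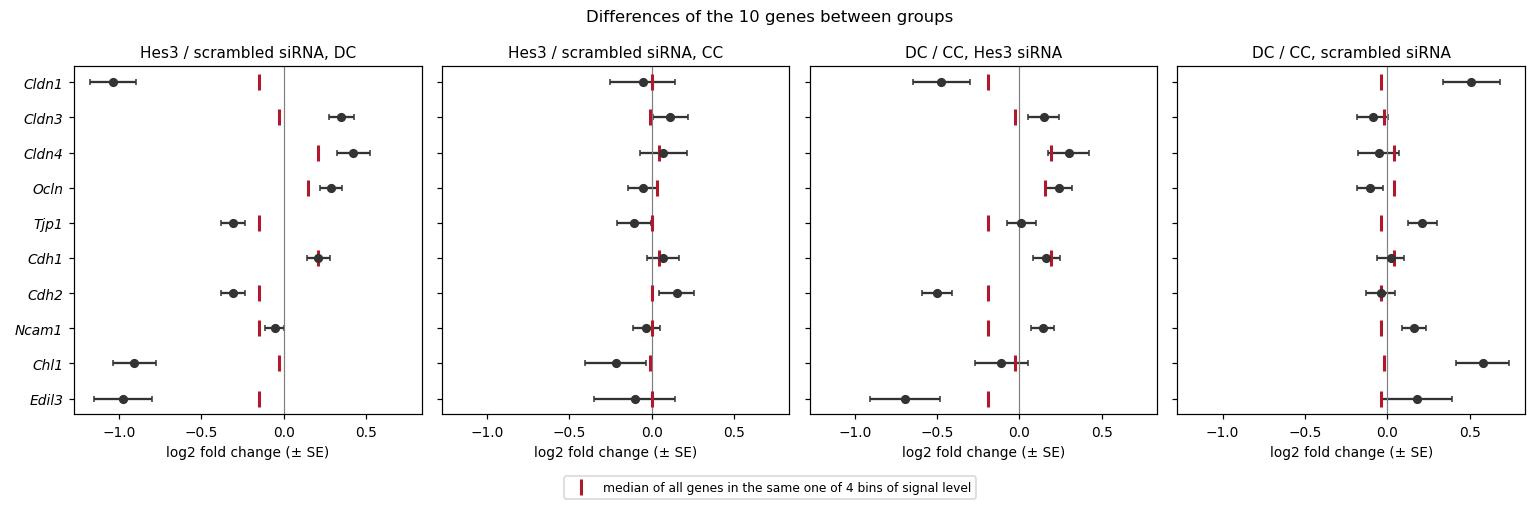
Log2 fold change (horizontal axis, bars are SE of the limma fit) of the 10 genes in 4 comparisons, with red ticks at the median of all genes in the same level bin. Cldn1, Chl1 and Edil3 lie farthest from their ticks in DC, and Cldn1 has opposite signs in the comparisons of DC with CC.

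Setting DC against CC asks what differed with the culture conditions, apart for each siRNA. With scrambled siRNA, all 4 DC arrays of Chl1 lay above both CC arrays, with a log2 fold change of 0.58 ± 0.162 (SE) beside a level-bin median of -0.02. Cldn1 had a log2 fold change of 0.51 ± 0.172 (SE), with DC arrays again above both CC arrays, and a level-bin median of -0.04. Tjp1 gave 10.20 and 10.08 in CC scrambled arrays, below all 4 DC scrambled arrays, a log2 fold change of 0.21 ± 0.0897 (SE). Ncam1 gave 11.87 and 11.77 in CC scrambled arrays and had a log2 fold change of 0.16 ± 0.0713 (SE). The other 6 had overlapping groups and log2 fold changes from -0.10 for Ocln to 0.18 for Edil3.

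With Hes3 siRNA, the sign of Cldn1 was the other way, and its groups did not overlap in either comparison of DC with CC. Edil3, Chl1, Cldn3, Cldn4 and Ocln also had opposite signs. Their groups overlapped with scrambled siRNA, with Hes3 siRNA or with both. Cldn1 had a log2 fold change of -0.47 ± 0.172 (SE) and Edil3 of -0.69 ± 0.213 (SE), both with all DC arrays below both CC arrays and a level-bin median of -0.19. Edil3 was at -0.29 without DC arrays 1 and 5 labelled Hes3 siRNA. Cdh2 gave 10.93 and 10.92 in CC arrays labelled Hes3 siRNA, above all 4 DC arrays so labelled, and its log2 fold change was -0.50 ± 0.0903 (SE) beside the same median. Over the 21 alternatives of the processing it ran from -0.61 to -0.31. These reuse the arrays of the selection and are no test of the sign. Ocln, at 6.25 and 6.23 in CC arrays labelled Hes3 siRNA, had a log2 fold change of 0.24 ± 0.0792 (SE) beside a level-bin median of 0.15. Cldn4 had 0.30 ± 0.125 (SE) and Cdh1 0.16 ± 0.0827 (SE), both beside a level-bin median of 0.19. Ncam1 had 0.14 ± 0.0713 (SE), all DC arrays lying above both CC arrays, beside a level-bin median of -0.19. Cldn3, Chl1 and Tjp1 had overlapping groups, with log2 fold changes of 0.15, -0.11 and 0.01.

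Some of the 10 genes varied together within groups. The pairs named here were picked from all 45 after their values were seen. After each array was set against its group mean, Cldn1 and Chl1 had a Pearson correlation of 0.970 over 12 arrays, and Cldn1 and Cdh2 one of 0.873. Edil3 ran with Tjp1 (0.738) and against Cldn3 (-0.882) and Cdh1 (-0.772). Cldn4 ran with Cdh1 (0.871). Cldn1 and Edil3, which had similar fold changes in DC, correlated at 0.399 only. Ncam1 correlated with the other 9 genes at values from -0.27 to 0.30. In DC arrays labelled Hes3 siRNA, Cldn1, Chl1 and Cdh2 were lowest in arrays 5 and 7, whereas Edil3 and Tjp1 were lowest in arrays 1 and 5. These values are descriptions over arrays that share groups and normalization.

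**Figure D3:**
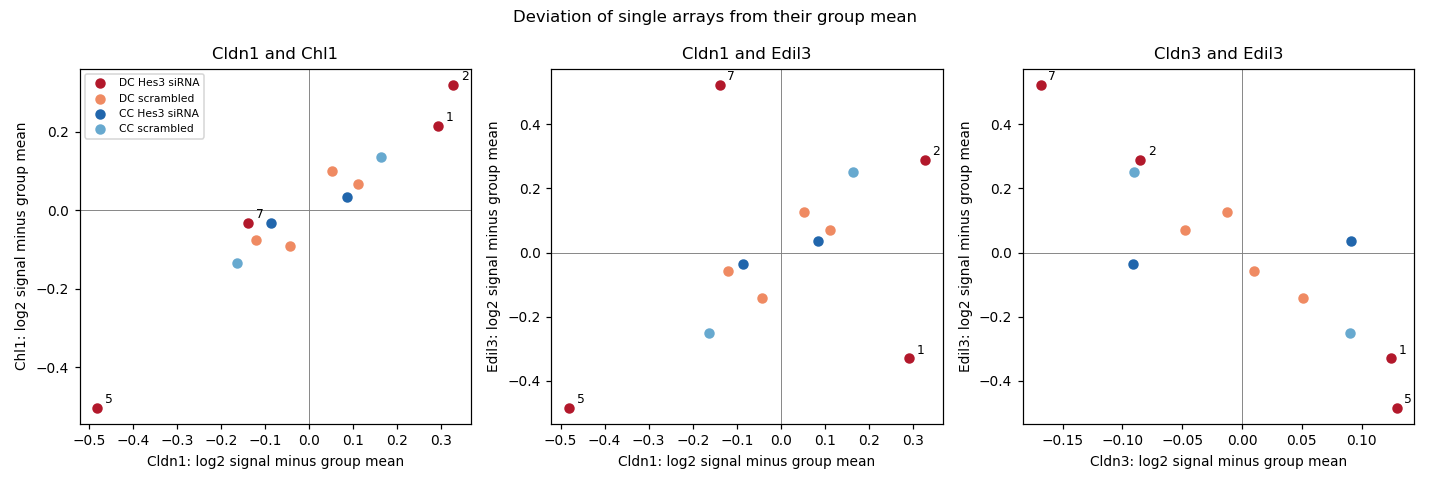
Deviation of each of 12 arrays from its group mean in log2 signal for 3 pairs of genes, coloured by group, with the replicate labels of DC arrays labelled Hes3 siRNA. Cldn1 and Chl1 follow one line (0.970), Cldn1 and Edil3 do not (0.399), and Cldn3 and Edil3 run in opposite directions (-0.882).

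Over the 12 arrays the genes most like Cldn1 were Dsc2 (Pearson correlation 0.970), Fig4 (0.959) and Chl1 (0.959), out of all 19938. Dsc2 encodes desmocollin 2, a cadherin of desmosomes. Those most like Chl1 were Gpcpd1 (0.971), 1700048O20Rik (0.968) and Fig4 (0.968). Edil3 was most like Ints8 (0.986), Polr3b (0.985) and Ppip5k2 (0.983), and Tjp1 most like Dmxl1 (0.965), Dync2h1 (0.961) and 4930503L19Rik (0.959). Cdh2 was most like Rhoj (0.978), Cyria (0.970) and Nab1 (0.967), Cdh1 most like Chdh (0.985), Ano4 (0.984) and Cdc20b (0.984), and Ncam1 most like Apbb2 (0.971), Gdap10 (0.954) and Plppr2 (0.953). Cldn3 was most like Plpp4 (0.981), Celsr1 (0.960) and Ncf1 (0.958), Cldn4 most like Cryzl2 (0.979), Pck1 (0.978) and Slc18a2 (0.977), and Ocln most like Pus1 (0.981), Msrb3 (0.979) and Batf3 (0.975).

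The wider set of junction and adhesion genes, 157 measured of 166 listed in 12 lists, puts the 10 genes in context. In DC, 58 of the 157 rose and 28 fell with Hes3 siRNA against scrambled siRNA, beside 28.9% and 18.3% of all genes (47.2% in either direction). Their median log2 fold change was 0.13, where that of all genes was 0.06. Dim and bright genes differed: 47 of 85 below the median signal level of all genes rose and 4 fell, while 11 of 72 above it rose and 24 fell. All genes differed by level as well. From the dimmest to the brightest of the 4 bins, 38.1%, 63.1%, 44.3% and 43.3% of all genes passed in either direction. The median log2 fold changes of these bins were 0.15, 0.21, -0.03 and -0.15. Without DC arrays 1 and 5 labelled Hes3 siRNA, 0 of the 157 rose and 6 fell, where 331 of all genes (1.66%) passed in either direction. With the replicate number as a block, 0 rose and 1 fell, where 620 of all genes (3.11%) passed. Only replicate numbers 1 and 2 occur under both labels in DC. The block fit therefore compares only DC arrays 1 and 2 of each label, and its lower counts also reflect fewer arrays. With cyclic loess normalization 16 rose and 19 fell, where 21.6% of all genes passed. The counts for each list below stand against the same 28.9% and 18.3% of all genes, and nothing is called particular to a list. These shares do not account for signal level.

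Among 20 other claudins, 16 rose and 1 fell in DC with Hes3 siRNA, with a median log2 fold change of 0.26, and 17 of the 20 were below the median signal level. Cldn13 had a log2 fold change of 0.37 ± 0.131 (SE; limma adjusted p = 0.0303), Cldn7 0.34 ± 0.0794, Cldn18 0.34 ± 0.0796 and Cldn6 0.33 ± 0.0750. The one that fell was Cldn12, the brightest to pass, by 0.23 ± 0.0692 (SE; limma adjusted p = 0.0167), a gene chosen after its value was seen. The claudin median stayed above 0 under quantile normalization, median centring and cyclic loess (0.19, 0.18 and 0.14), where 11, 9 and 4 rose. There 28.8%, 39.8% and 21.6% of all genes passed in either direction. These shares hold falls as well, so the counts that rose cannot be set directly against them. None of the 20 rose with the replicate block or without DC arrays 1 and 5 labelled Hes3 siRNA. Of 11 other tight junction membrane proteins 6 rose and 1 fell, led by the polarity protein gene Crb3 (0.41 ± 0.0889) and the tricellular junction gene Lsr (0.37 ± 0.0810), while the junctional adhesion molecule gene Jam2 fell by 0.32 ± 0.0642 (SE; limma adjusted p = 0.00378). Of 19 scaffold and polarity genes 5 rose and 3 fell, among them Mpp5, the older symbol of Pals1, which fell by 0.50 ± 0.0865 (SE; limma adjusted p = 0.00290), and Tjp3, which encodes ZO-3 and rose by 0.32 ± 0.0769.

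Of 21 other cadherins 5 rose and 4 fell. Cdh6 fell by 0.55 ± 0.151 (SE; limma adjusted p = 0.0114), with 9.76, 9.71, 8.78 and 9.57 in DC arrays 1, 2, 5 and 7 labelled Hes3 siRNA, against 9.95, 9.98, 10.02 and 10.06 in DC scrambled arrays, so array 5 was far below the rest of its group. Cdh16 and Cdh3 rose by 0.38 ± 0.0939 and 0.34 ± 0.0711. Of 15 catenin, nectin and linker genes 1 rose and 5 fell, among them Vcl, which encodes vinculin (-0.36 ± 0.101), and Ctnnd1, which encodes p120-catenin (-0.31 ± 0.0702). Of 11 desmosome genes 4 rose and 2 fell, and Dsc2 fell by 0.41 ± 0.0787 (SE; limma adjusted p = 0.00336). Of 13 gap junction genes 8 rose and none fell, including Panx2 (0.35 ± 0.101) and Gja3 (0.33 ± 0.0730).

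Of 23 other immunoglobulin-family neural adhesion genes, 4 rose and 8 fell in DC with Hes3 siRNA. L1cam, the founding member of the family of Chl1, fell by 0.50 ± 0.0711 (SE; limma adjusted p = 0.00168). It gave 9.03, 9.11, 8.85 and 8.75 in DC arrays 1, 2, 5 and 7 labelled Hes3 siRNA, against 9.43, 9.47, 9.44 and 9.40 in DC scrambled arrays, and the groups did not overlap. Ncam2 fell by 0.41 ± 0.0995, Alcam by 0.40 ± 0.0721 and Nrcam by 0.40 ± 0.0950. The median of these 23 was -0.07 and turned to 0.02 under quantile normalization, where 2 rose and 7 fell. Of the 2 enzymes that add polysialic acid to NCAM, St8sia2 rose by 0.28 ± 0.0710. Among 4 genes of the Edil3 paralog and integrin receptors, Itgav, which encodes the alpha-v integrin, fell by 0.28 ± 0.0587 and Itgb3 rose by 0.26 ± 0.0721. Of 14 regulators of Cdh1 and the epithelial state 6 rose and 3 fell. Zeb2 was lower by 0.35 ± 0.0634 (SE; limma adjusted p = 0.00310). Ovol1, Grhl3 and Twist1 also passed and were higher. Their mean log2 signals were 7.95, 7.58 and 7.54, against 7.61, 7.24 and 7.22 in DC scrambled arrays. Of 4 other surface adhesion genes 1 rose, Vcam1, by 0.19 ± 0.0704.

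**Figure D4:**
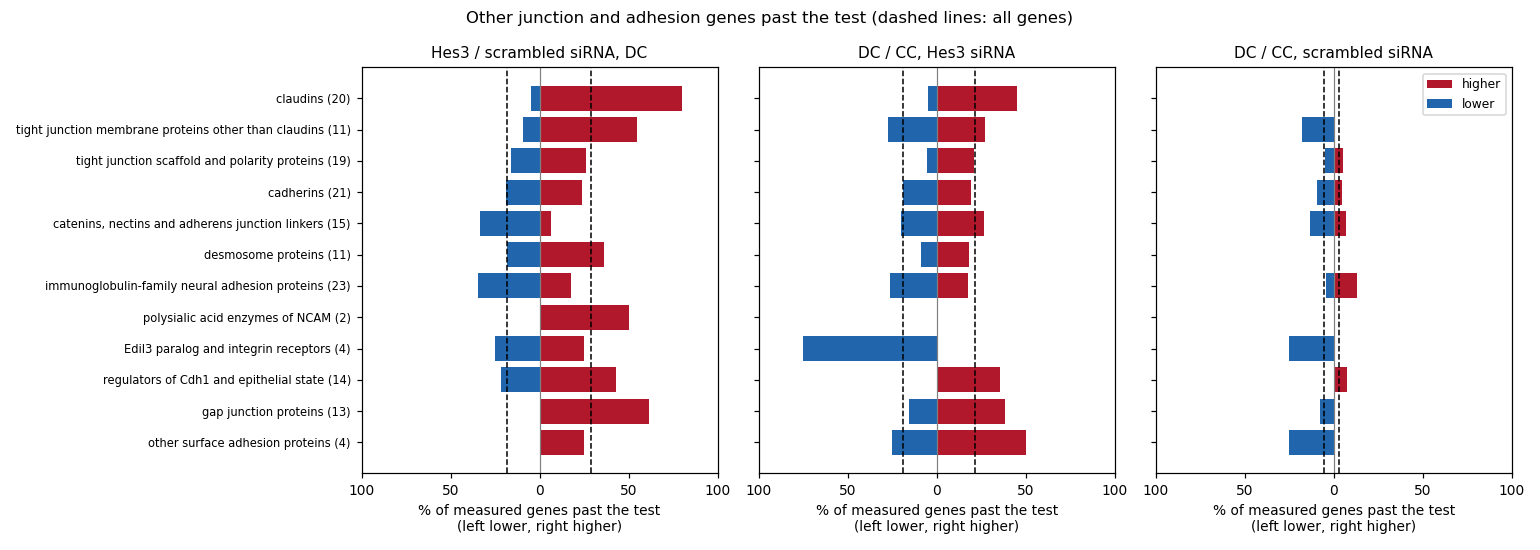
Share of the measured genes of 12 lists (number measured in brackets) that passed limma's test in each direction (horizontal axis, percent, lower to the left and higher to the right), with dashed lines at the shares of all genes. Claudins show 16 of 20 higher and 1 lower in DC with Hes3 siRNA, and few genes of any list pass between DC and CC with scrambled siRNA.

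In CC, 0 of the 157 passed limma's test between siRNA labels, with 4 at an unadjusted p under 0.05, and Ceacam1 had the smallest p (log2 fold change 0.25 ± 0.0854). For the difference between the siRNA contrasts in DC and in CC, 0 of 157 passed and 30 had an unadjusted p under 0.05. With scrambled siRNA, 7 of the 157 rose and 11 fell in DC against CC, beside 3.09% and 5.45% of all genes (8.54% in either direction). Without CC scrambled array 2, 7 rose and 3 fell, where 742 of all genes (3.72%) passed in place of 1702. L1cam rose by 0.97 ± 0.0870 (SE; limma adjusted p = 5.27e-06) and Cdh23, a cadherin of the inner ear, by 0.86 ± 0.0649 (SE; limma adjusted p = 1.41e-06). Mfge8, the paralog of Edil3, fell by 1.15 ± 0.153 (SE; limma adjusted p = 0.000189), with 9.88, 9.997, 9.89 and 9.97 in DC scrambled arrays against 11.07 and 11.09 in CC scrambled arrays. F11r, which encodes the junctional adhesion molecule JAM-A, fell by 0.55 ± 0.0963, Ctnnal1 by 0.56 ± 0.0728 and Jam2 by 0.45 ± 0.0787, while Nectin1 rose by 0.52 ± 0.0890. None of the 20 other claudins passed there.

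With Hes3 siRNA, 42 of the 157 rose and 25 fell in DC against CC, beside 21.2% and 18.8% of all genes (40.1% in either direction). Without CC array 1 or 2 labelled Hes3 siRNA, 7 or 8 rose and 18 or 23 fell, where 17.1% or 11.8% of all genes passed. Under median centring 9 rose and 30 fell, where 30% of all genes passed, so the direction of the split depends on the scaling. Mfge8 fell by 1.09 ± 0.153, Jam2 by 0.83 ± 0.0787, Alcam by 0.77 ± 0.0883 and F11r by 0.64 ± 0.0963, and each of these calls was kept in all 21 alternatives. Gjd2, the main gap junction gene of beta cells, fell by 0.69 ± 0.104 (SE; limma adjusted p = 0.000203). L1cam rose by 0.49 ± 0.0870 and Cdh23 by 0.72 ± 0.0649. Of the 20 other claudins 9 rose and 1 fell, Cldn12, by 0.53 ± 0.0847 (SE; limma adjusted p = 0.000342), and under quantile normalization 0 rose and 1 fell.

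In DC arrays labelled Hes3 siRNA, most genes marking other cell types had more signal, as did most dim adhesion genes and dim genes in general. The mean log2 signal of 4 measured acinar markers ran from 7.34 to 7.62 in those arrays and from 7.10 to 7.27 in DC scrambled arrays, and all 4 rose. The 4 measured duct markers ran from 7.31 to 7.49 and from 7.09 to 7.22, with 3 of 4 higher, and the 6 fibroblast markers from 7.59 to 7.797 and from 7.41 to 7.51, with 4 of 6 higher. The 5 endothelial markers ran from 7.03 to 7.23 and from 6.88 to 6.97, with 2 of 5 higher, the 5 macrophage markers from 6.95 to 7.05 and from 6.80 to 6.89, with 3 of 5 higher, and the 4 Schwann cell and neuron markers from 8.45 to 8.56 and from 8.30 to 8.39, with 2 of 4 higher. Of 8 beta cell markers, 1 rose and 4 fell, beside 28.9% and 18.3% of all genes, with a median log2 fold change of -0.18. Most of these 8 were in the brightest level bin. In that bin 43.3% of all genes passed in either direction, with a median log2 fold change of -0.15. These counts do not account for signal level. In DC, 38.1% and 63.1% of all genes in the 2 dimmer level bins passed in either direction. These bins held most markers of the other cell types. The median log2 fold changes of these bins were 0.15 and 0.21, and markers lay on both sides of them. The part of all these markers in the results above was not tested. Arrays of whole cultures cannot tell fewer cells of a type from less RNA per cell.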

How the data were processed

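RNA of MIN6 cells was measured on 12 Affymetrix arrays, labelled from 250 ng of total RNA with a kit for whole transcripts, per the labels' protocols. The deposited values are log2 signals per probe set. No label states this unit, which was taken from their range of 3.94 to 14.4. Summarization and normalization are not given in the sources used here. Of 35556 probe sets, 21789 had exactly 1 gene symbol in the platform annotation, 1621 several and 12146 none. Where a gene had several, the probe set of highest average signal was used (999 genes), leaving 19938 genes with no filter on dim genes. Symbols were checked through Entrez identifiers.

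A linear model was fitted in R 4.3.3 using limma 3.58.1 (lmFit, then eBayes, 1 mean per group, 8 residual and 7.62 prior degrees of freedom), with two-sided p-values and Benjamini-Hochberg adjustment across the 19938 genes for each of 5 contrasts, at a threshold of 0.05. The code was tested on simulated data. The genes, the lists and the alternatives were chosen with earlier results of these data known. Apart from the 10 genes and Hes3, the rule named up to 4 genes past the threshold from each list and contrast with the largest change, and 3 most alike genes for each of the 10 by Pearson correlation. Only part of the genes so named is printed. The 10 genes were to be tested in the comparisons of DC with CC as well. Since these share the DC arrays that chose the genes, their p-values are withheld there, and the 10 genes were tested between siRNA labels in CC alone. The 21 alternatives were quantile normalization, median centring, cyclic loess, leaving out genes under the 40th percentile, trended robust eBayes, a fit restricted to the compared arrays, averaging of probe sets per gene, replicate number as a block, leaving out each of 12 arrays, and dropping arrays 1 and 5 of DC with Hes3 siRNA.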

Additional observations from a re-analysis of the deposited data

Results flagged for a closer look

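Among 148 groups of 4 DC arrays, of the 10 genes and of the list genes the rule named, 9 had an array far from the other three, where chance gives about 1 in 20. None was one of the 10 genes. In DC arrays labelled Hes3 siRNA, F11r stood at 8.47 in array 2 (others 8.33 to 8.34), Cgn at 8.57 in array 7 (others 8.90 to 8.96), Nectin1 at 9.81 in array 7 (others 10.05 to 10.09) and Twist2 at 8.44 in array 1 (others 8.24 to 8.26). In DC scrambled arrays, F11r stood at 8.49 in array 3 (others 8.41 to 8.42), Cdh23 at 9.13 in array 3 (others 9.02 to 9.04), Nrcam at 10.73 in array 3 (others 10.88 to 10.89), Cldn15 at 7.48 in array 1 (others 7.56 to 7.57) and Ceacam1 at 8.60 in array 4 (others 8.57).

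Cldn1 was lower in every DC array than in every CC array with Hes3 siRNA and higher in every DC array with scrambled siRNA, and the contrasts differed by -0.98 on the log2 scale. For Cdh2, all DC arrays labelled Hes3 siRNA were below the scrambled arrays and both CC arrays labelled Hes3 siRNA above theirs, and the contrasts differed by -0.46. Both genes were selected on these DC arrays, so neither difference was tested by itself. Of all 19938 genes, 0 passed limma's test of this difference.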

How the results depend on the processing

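Between siRNA labels in CC, 0 of the 10 genes passed the test in the main analysis and in each of the 21 alternatives. Shares in brackets are of all genes passing in either direction. Of the 157 listed genes, 58 higher and 28 lower between siRNA labels in DC (47.2%) became 35 and 16 with quantile normalization (28.8%), 35 and 37 with median centring (39.8%), 16 and 19 with cyclic loess (21.6%), 20 and 24 without dim genes (45.4%), 0 and 6 without DC arrays 1 and 5 labelled Hes3 siRNA (1.66%), and 34 to 67 higher leaving out 1 array. Scrambled DC against CC gave 7 higher and 11 lower (8.54%), but 11 and 13 with cyclic loess (10.1%), 14 and 13 with only the arrays compared (9.40%), 13 and 15 without arrays 1 and 5 (10.9%), 5 and 12 with median centring (8.11%), and 6 to 11 higher and 3 to 14 lower leaving out 1 array. Hes3 siRNA DC against CC gave 42 higher and 25 lower (40.1%), but 15 and 21 with quantile normalization (25.2%), 9 and 30 with median centring (30%), 14 and 21 with cyclic loess (25.7%), 22 and 24 without dim genes (48.1%), 8 and 21 without arrays 1 and 5 (18.2%), and 7 to 53 higher leaving out 1 array. For the difference of the siRNA contrasts, leaving out 1 array gave 0 to 4 higher and 0 to 10 lower, the highest counts without CC scrambled array 2 (2056 of all genes, 10.3%). The cause was not tested.

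Whether replicate numbers pair the arrays was not settled. Deviations from the group mean of same-numbered arrays correlated from -0.44 to 0.54, and differently numbered arrays were not compared. With a replicate block, 0 of the listed genes were higher and 1 lower between siRNA labels in DC (620 of all genes, 3.11%), 5 higher and 4 lower in DC against CC with scrambled siRNA (4.03%), and 15 higher and 19 lower with Hes3 siRNA (20.3%). The block leaves only arrays 1 and 2 of each group in these comparisons, so its counts also reflect fewer arrays.

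Signs turned for Ncam1 between siRNA labels in DC (0.051 with quantile normalization, 0.087 with cyclic loess) and in the difference of contrasts (0.12 and 0.16), for Cdh1 with scrambled siRNA (-0.022 with quantile normalization, -0.018 with cyclic loess, -0.022 with the replicate block, -0.012 with median centring) and with Hes3 siRNA (-0.0088 with cyclic loess), for Tjp1 with Hes3 siRNA (-0.099 with median centring, -0.0081 with the replicate block) and for Chl1 with Hes3 siRNA (0.16 with the replicate block, 0.034 without arrays 1 and 5). Leaving out 1 array gave ranges that crossed 0. With Hes3 siRNA, DC against CC, these were -0.047 to 0.062 for Tjp1 and -0.22 to 0.058 for Chl1. With scrambled siRNA they were -0.18 to 0.0019 for Cldn3, -0.18 to 0.081 for Cldn4, -0.070 to 0.43 for Edil3, -0.044 to 0.087 for Cdh1 and -0.11 to 0.026 for Cdh2. Between siRNA labels in CC they were -0.22 to 0.11 for Cldn1, -0.060 to 0.20 for Cldn4, -0.35 to 0.15 for Edil3 and -0.085 to 0.020 for Ncam1, and in the difference of contrasts -0.076 to 0.029 for Ncam1. A group left with 1 array is assumed to vary like the others.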
